A study of Mus musculus with 4 samples.

Results

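The 10 genes described here encode core proteins of proteoglycans, namely serglycin (*Srgn*), the syndecans *Sdc1*, *Sdc2*, *Sdc3* and *Sdc4*, the glypicans *Gpc1*, *Gpc3*, *Gpc4* and *Gpc6*, and versican (*Vcan*). They were taken from the 53379 genes of the deposited tables by an exact match of their symbols. They were chosen with their levels in these libraries known, so their differences between the groups are a description and carry no test. RNA was sequenced from DKO741, a mouse embryonic stem cell (mESC) line that lacks both alleles of *Terc*, the telomerase RNA gene, and that was recovered from E14 cells. The alleles were targeted in turn, and between these steps the neo cassette was removed with Cre recombinase from an adenovirus. Cells at population doubling 100 (PD100, pre-ALT) were compared with cells at population doubling 800 (PD800, post-ALT), with 2 libraries of each, where ALT is the alternative lengthening of telomeres that maintains chromosome ends without telomerase. Both groups carry the same *Terc* deletion and belong to the same line, so time in culture and ALT cannot be told apart. The labels also write of passages 100 and 800, and they state that RNA was taken from cultures without feeder cells. The paper describes such libraries as biological duplicates, and p-values here measure only the spread between such libraries.

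A proteoglycan is a core protein that carries long sulphated sugar chains, the glycosaminoglycans, usually on a serine followed by a glycine. Syndecans span the cell membrane and glypicans are held on it by a lipid anchor, and both carry mainly heparan sulphate, which binds growth factors such as FGFs and Wnts and is required by mESCs to leave self-renewal. Versican is a large chondroitin sulphate proteoglycan of the extracellular matrix that binds hyaluronan. Serglycin is the proteoglycan of secretory granules, best known from mast cells and other blood cells, and its short core holds an uninterrupted run of serine and glycine.

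The serine and glycine codons can be read in the coding sequences of GENCODE M21, which annotates GRCm38 (mm10). A serine codon (TCN, AGT or AGC) followed by a glycine codon (GGN) was counted as a pair, read in frame on the coding strand. The stretches of 25 codons with the most pairs are shown for serglycin, for *Gpc3*, which was the only one of the 10 with a higher level in PD800 cells past the fold threshold, and for *Sdc4*, the most abundant of the 10. Each is printed in the direction of the gene with the serine and glycine codons of each pair in capitals.
Srgn, chr10:62494998-62495072, minus strand, exon 4 of 4 of Srgn-204: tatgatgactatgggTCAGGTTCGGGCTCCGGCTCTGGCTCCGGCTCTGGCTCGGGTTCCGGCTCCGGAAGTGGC
Gpc3, chrX:52314880-52314954, minus strand, exon 7 of 8 of Gpc3-201: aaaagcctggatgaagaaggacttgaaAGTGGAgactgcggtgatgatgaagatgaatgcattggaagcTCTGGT
Sdc4, chr2:164431194-164431268, minus strand, exon 2 of 5 of Sdc4-201: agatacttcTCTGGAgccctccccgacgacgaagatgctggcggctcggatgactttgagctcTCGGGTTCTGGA
All 10 pairs of *Srgn* lay in its stretch and followed each other without a break. The 152 codons of *Srgn* thus held 6.58 pairs per 100 codons, which ranked 24 from the top among 21756 protein-coding genes, whose median was 0.472. The syndecans held between 1.49 and 1.81 pairs per 100 codons and the glypicans between 0.345 and 1.08, with *Gpc3* the lowest of the 10 at 2 pairs in 579 codons. The coding sequence of *Vcan* was the longest, with 30 pairs in 3354 codons.

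The expected counts of a library summed to between 32454121 and 38492149, and a floor of 3 counts, under which a gene was treated as not detected, corresponded to between 0.0743 and 0.0934 CPM (counts scaled to the size of the library). *Terc*, the targeted gene, was at an expected count of 1 in the first PD100 library and at 0 in all others. All 12 pluripotency markers were detected in both groups, with a summed level between 1630 and 1930 TPM (a level scaled by transcript length) in PD100 cells and between 2260 and 2300 TPM in PD800 cells, led by *Dppa5a* in both. Of the 12, *Nanog* (log2 fold change 2.32), *Klf4* (2.84) and *Esrrb* (2.06) were called higher in PD800 cells, or 25%, beside 6.28% of all tested genes. By edgeR or DESeq2 0 were called lower, beside 8.81% of all tested genes by edgeR, with 2 lower at an unadjusted p under 0.05. By edgeR's adjusted p under 0.01 with no fold threshold, 5 were higher and 1 was lower, beside 2513 and 2943 of all tested genes. All 10 core protein genes passed the expression filter that left 19148 genes for testing, although *Srgn* passed through its PD100 libraries alone and therefore had to differ. With 2 libraries against 2, an exact permutation test (two-sided) of a single gene cannot give a p below 0.333. In bulk RNA, fewer cells that express a gene and less RNA of it per cell cannot be told apart.

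Serglycin RNA was present in PD100 cells and at the limit of detection in PD800 cells. The expected counts of *Srgn* (ENSMUSG00000020077.14, chromosome 10 from 62493833 to 62527451, minus strand) were 1027 and 896 in the PD100 replicates 1 and 2 and 2 in each PD800 replicate. Per transcript length it stood at 20.9 and 18.5 TPM in the PD100 libraries and at 0.05 and 0.03 TPM in the PD800 libraries. The PD100 libraries were far above the PD800 libraries, and the PD800 libraries lay below the floor of 3 counts. The mean level in PD100 cells, 26.1 ± 0.992 CPM (SD, n = 2), was at least 296-fold higher than the PD800 level, taken at the mean floor of the PD800 libraries. The log2 difference fitted by edgeR was -8.71 ± 0.18 (SE), a value that depends on how edgeR treats very low counts. DESeq2 gave -8.81 ± 0.74 (SE), a wider error, and edgeR's narrower one is not read as the precision of so few counts. Leaving out any 1 library kept the edgeR value between -8.79 and -8.63, which does not measure counting error either.

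The syndecans were dominated by *Sdc4* in both groups. *Sdc4*, which takes part in cell adhesion sites, had expected counts of 5081 and 5421 in PD100 cells and of 4748 and 4892 in PD800 cells. Scaled by library size these were 126 and 162 CPM against 132 and 152 CPM, so the groups overlapped. Its log2 difference was -0.02 ± 0.14, and it changed sign when libraries were left out, between -0.19 and 0.15. *Sdc1*, an epithelial syndecan, had expected counts of 1897 and 1517 in PD100 cells and of 1070 and 983 in PD800 cells. Both PD800 libraries lay below both PD100 libraries, at 30.2 ± 0.583 CPM against 46.2 ± 1.09 CPM (SD, n = 2 each), with a log2 difference of -0.62 ± 0.07. The remaining syndecans were scarcer. *Sdc2*, known from mesenchymal cells, had expected counts of 266 and 230 in PD100 cells and of 121 and 119 in PD800 cells. *Sdc3*, known from neural tissue, had 267 and 160 at PD100 and 116 and 89.2 at PD800. For both, the PD800 libraries were the lower ones without overlap in CPM, and the log2 difference was -0.93 ± 0.14 for *Sdc2* and -0.93 ± 0.21 for *Sdc3*. The PD100 replicates of *Sdc3* differed from each other, at 6.61 and 4.79 CPM, and its log2 difference moved between -1.16 and -0.67 when libraries were left out.

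*Gpc3*, a glypican that restrains growth in the embryo and is lost in an overgrowth syndrome, was the gene of the 10 with a higher level in PD800 cells past the fold threshold. The PD100 libraries held expected counts of 495 and 522 for it, and the PD800 libraries 1563 and 1468. Both PD800 libraries were well above both PD100 libraries, at 44.6 ± 1.56 CPM against 14.0 ± 2.39 CPM (SD, n = 2 each). The log2 difference was 1.68 ± 0.13, a 3.20-fold higher level, and it lay between 1.51 and 1.84 with any 1 library left out. *Gpc4*, the glypican gene next to *Gpc3* on the X chromosome with a gap of 107 kb between them, had expected counts of 403 and 371 in PD100 cells and of 352 and 291 in PD800 cells. Its PD800 libraries lay slightly below its PD100 libraries in CPM, with a log2 difference of -0.16 ± 0.11. *Gpc6*, which shares its longest aligned coding stretch among these glypicans with *Gpc4* (1339 bases at 69.2% identity by blastn, against 248 bases at 69.8% with *Gpc1*), had expected counts of 230 and 189 in PD100 cells and of 104 and 79 in PD800 cells. The PD100 libraries were nearly equal at 5.70 and 5.66 CPM and above the PD800 libraries, and the log2 difference was -1.08 ± 0.16. *Gpc1*, a widely expressed glypican, had expected counts of 1143 and 886 in PD100 cells and of 836 and 785 in PD800 cells. Its groups did not overlap in CPM, and the log2 difference was -0.20 ± 0.08.

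*Vcan* had expected counts of 3670 and 2655 in PD100 cells and of 3292 and 2822 in PD800 cells. In CPM these were 90.9 and 79.5 against 91.6 and 87.8, so the groups overlapped. The log2 difference of *Vcan* was 0.07 ± 0.09, and it lay between -0.04 and 0.18 with any 1 library left out. Transcripts of *Vcan* differ widely in length. RSEM's mean transcript length for the gene, weighted by abundance, was 8601 and 7480 bases in the PD100 libraries and 9351 and 8225 bases in the PD800 libraries. These lengths overlapped between the groups, whereas those of *Sdc1*, *Sdc4*, *Gpc1* and *Gpc3* were longer in the PD800 libraries without overlap. For *Sdc4* they were 2147 and 1971 bases at PD100 and 2229 and 2165 bases at PD800. Length enters TPM but not the counts.

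**Figure D1:**
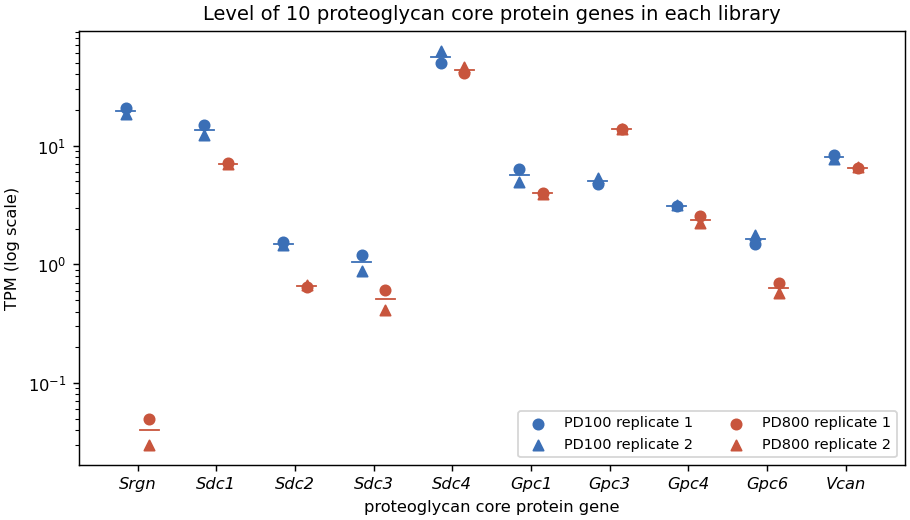
TPM on a log scale for each of the 10 core protein genes, with circles and triangles for replicates 1 and 2, blue for PD100, red for PD800 and a bar at the mean of each pair. *Srgn* drops from about 20.9 and 18.5 TPM to 0.05 and 0.03 TPM, *Gpc3* is the gene whose red points lie above its blue ones, and the other pairs lie closer together.

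Per transcript length, *Sdc4* was the most abundant of the 10 in both groups, with 56.1 ± 9.43 TPM in PD100 cells and 43.7 ± 3.59 TPM in PD800 cells (SD, n = 2 each). In PD100 cells *Srgn* came next with a mean of 19.7 TPM, followed by *Sdc1* with 13.5, *Vcan* with 8.0, *Gpc1* with 5.63, *Gpc3* with 5.04, *Gpc4* with 3.12, *Gpc6* with 1.64, *Sdc2* with 1.48 and *Sdc3* with 1.04 TPM. The neighbours *Gpc1* and *Gpc3*, and *Gpc6* and *Sdc2*, overlapped in this order, so their ranks are not separated. In PD800 cells *Gpc3* was in the next place after *Sdc4* with a mean of 13.7 TPM, and *Sdc1* with 7.04, *Vcan* with 6.53, *Gpc1* with 3.96 and *Gpc4* with 2.37 TPM kept the order they had among themselves in PD100 cells. *Sdc2*, *Gpc6* and *Sdc3* followed with 0.655, 0.63 and 0.51 TPM and each overlapped with the next of these, while *Srgn* was last with 0.04 TPM. Summed over the 10 genes, the level was 112 and 119 TPM in the PD100 libraries and 77.0 and 81.2 TPM in the PD800 libraries. The serglycin share of this sum went from 18.7% and 15.6% in PD100 cells to 0.065% and 0.0369% in PD800 cells. The glypican share was 14.0% and 12.8% at PD100 against 27.2% and 25% at PD800. *Gpc3* alone made up 30.2% and 35.2% of the glypican sum at PD100 and 65.6% and 67.1% at PD800. The syndecan share was 59.9% and 65.1% against 64.4% and 66.8% and overlapped between the groups. These shares were formed from TPM, which keeps no counts, so no counting interval is given.

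**Figure D2:**
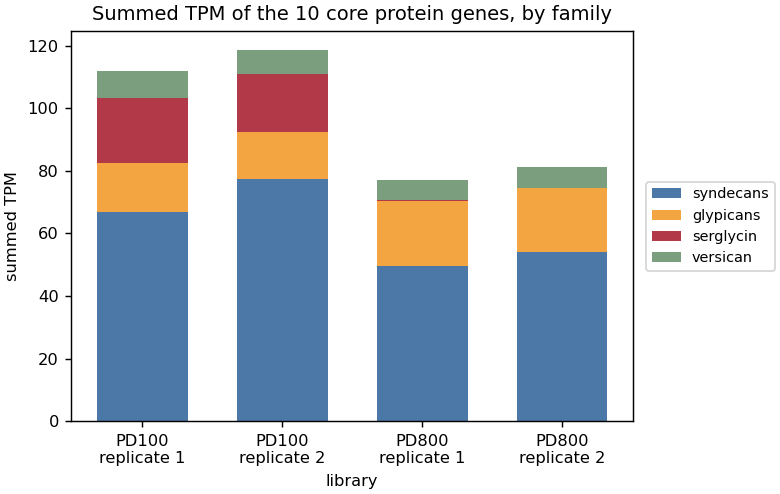
Stacked bars of the summed TPM of the 10 core protein genes in each library, divided into the syndecans, the glypicans, serglycin and versican. The serglycin band is visible in the PD100 libraries and nearly absent in the PD800 libraries, while the glypican band is thicker in the PD800 libraries at 21 and 20.4 TPM against 15.6 and 15.2 TPM.

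Read against all genes, a gene was called at a Benjamini-Hochberg adjusted p under 0.01 (edgeR's quasi-likelihood test) with a fold change over 2. By these thresholds 1 of the 10 genes, *Gpc3*, was on the higher side in PD800 cells, where the share among all tested genes was 6.28%. On the lower side were 2 of the 10, *Srgn* and *Gpc6*, where the share among all tested genes was 8.81%. The 10 genes were chosen on this same contrast, so nothing is read from these counts. Nor is anything read from which of the 10 lie past or short of a threshold, here or on other scales below. Of the other 7, those nearest the fold threshold were *Sdc2* and *Sdc3* at -0.93 on the log2 scale, just outside, where *Sdc3* also missed the adjusted p, and *Gpc6* at -1.08 was just inside. With 1 library left out in turn, the log2 difference of *Gpc6* lay between -1.21 and -0.97 and that of *Sdc3* between -1.16 and -0.67. Both ranges cross the fold threshold. The median log2 difference of the 10 was -0.41, beside 0.01 over all tested genes, and 8 of the 10 were below 0. The groups did not overlap in CPM for 8 of the 10, all but *Sdc4* and *Vcan*, and nothing is read from this count either, since the share among all tested genes was 73.8%. On the TPM scale the median over all tested genes was lower, at -0.12 for log2(TPM + 1) and at -0.21 for log2(TPM + 0.1). There *Vcan* was at -0.26 and -0.29 and *Sdc4* at -0.34 and -0.35, so 9 of the 10 were below 0. On log2(TPM + 1), where low levels are drawn together, *Srgn* was at -4.31, *Sdc2* at -0.59, *Sdc3* at -0.43 and *Gpc6* at -0.69, nearer to 0 than on the count scale, and *Srgn* alone was past the thresholds on the lower side. On log2(TPM + 0.1) 3 genes were past them there, namely *Srgn*, *Gpc6* at -1.25 and *Sdc2* at -1.07.

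**Figure D3:**
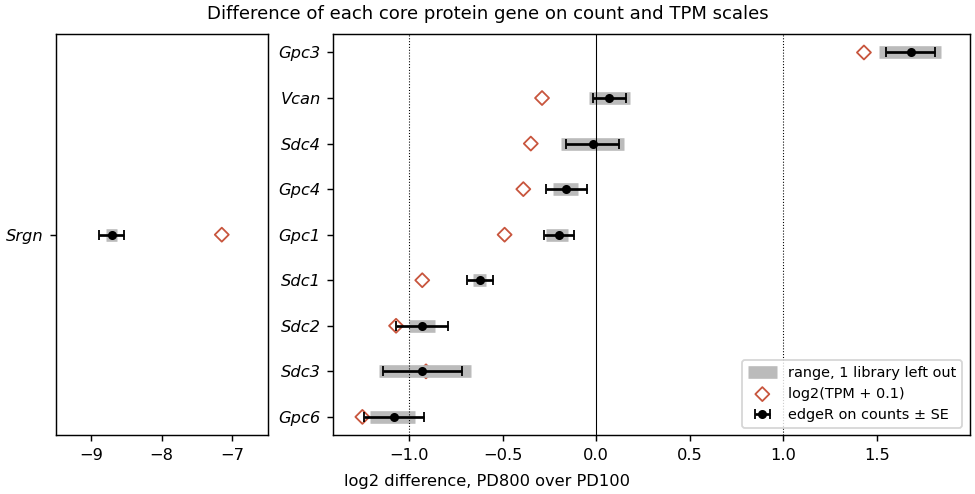
Fitted log2 difference of PD800 over PD100 cells for each core protein gene, as black points with the standard error, the range over fits with 1 library left out in grey and the difference of log2(TPM + 0.1) as open diamonds, with *Srgn* on an axis of its own. *Gpc3* lies to the right at 1.68, *Vcan* and *Sdc4* straddle 0 on the count scale, and the diamonds lie to the left of the points for all genes but *Srgn* and *Sdc3*.

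The 250 bases before annotated starts were examined in RefSeq's promoter table for GRCm38.p6, where 7 of the 10 genes had a window and *Sdc2*, *Gpc1* and *Gpc6* had none. The *Gpc4* window belongs to a RefSeq start at 52164923, while its GENCODE transcript starts at 52165252. That window thus lies inside the gene as GENCODE annotates it. The 2 windows of *Srgn* held 3 and 5 CG dinucleotides, against a median of 6 over 32851 windows. The windows of the other genes held between 10 CG (*Sdc1* and *Vcan*) and 32 CG (*Sdc3*), with 25 for *Gpc3*. The letters GGGCGG, searched on both strands, were found in the windows of all 6 of these genes and in neither window of *Srgn*, and 32.7% of all windows held them. The letters TATAAA, likewise on both strands, were found in the *Srgn* window that ends before position 62527445 and in no window of the other genes, and 12.4% of all windows held them. These matches are a description of the letters. Which start the *Srgn* RNA used cannot be read from gene-level counts.

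Most of the genes beside *Srgn* on chromosome 10 also had lower levels in PD800 cells, and those next to it differed to a much smaller extent. Of the 3 nearest tested genes before it, *Supv3l1*, a mitochondrial RNA helicase, was at a log2 fold change of -0.98 (edgeR, Benjamini-Hochberg adjusted p = 0.000258) and did not pass the fold threshold. *4930507D05Rik* was at -1.01 (adjusted p = 0.0592 by edgeR), and *Vps26a*, a retromer subunit, fell by 1.23 (adjusted p = 0.000236 by edgeR). Of the 3 nearest after it, *Kif1bp* was at -0.77 (adjusted p = 0.00178 by edgeR), *Ddx21*, an RNA helicase of the nucleolus, fell by 1.19 (adjusted p = 0.000394 by edgeR), and *AC121961.1* was at -1.13 (adjusted p = 0.153 by edgeR). Among the 20 nearest tested genes, which span 1.11 Mb, 4 were called lower by edgeR and 0 higher (1 higher at an unadjusted p under 0.05, and 0 called by DESeq2), beside 8.81% and 6.28% of all tested genes, 19 were below 0 and the median was -0.81. The median over the 904 tested genes of chromosome 10 was -0.22. The other genes called lower among the 20, named after their values were seen, were *Ddx50* at -1.08, which stayed past the fold threshold except without PD100 replicate 2, and *Hkdc1*, a hexokinase-like gene. *Hkdc1* had expected counts of 327 and 404 in PD100 cells and of 1 and 3 in PD800 cells, which are at or under the floor, so the fall was at least 114-fold. Like *Srgn*, it passed the expression filter through its PD100 libraries alone and had to differ. Within 2 Mb of the *Srgn* start, 10 of 52 tested genes were called lower by edgeR and 0 higher, with 3 higher at an unadjusted p under 0.05 and 1 called higher by DESeq2. Without *Hkdc1* and *Gm19972*, which both had to differ, 8 were called lower. The part of this shift in the *Srgn* difference was not tested. Around *Gpc3* fewer genes were above 0 than below it. Within 2 Mb of its start, 3 of 22 tested genes were called lower by edgeR, beside 8.81% of all tested genes, with a median of -0.14, and 0 were called higher (3 at an unadjusted p under 0.05, and 0 called by DESeq2). There 7 of the 22 were above 0, of which *Fam122b* at 0.78 (edgeR adjusted p = 0.00553) passed the adjusted p but not the fold threshold. The genes called lower there were *Mbnl3*, *Usp26* and *Hs6st2*, an enzyme that adds sulphate to heparan sulphate and fell by 2.76.

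**Figure D4:**
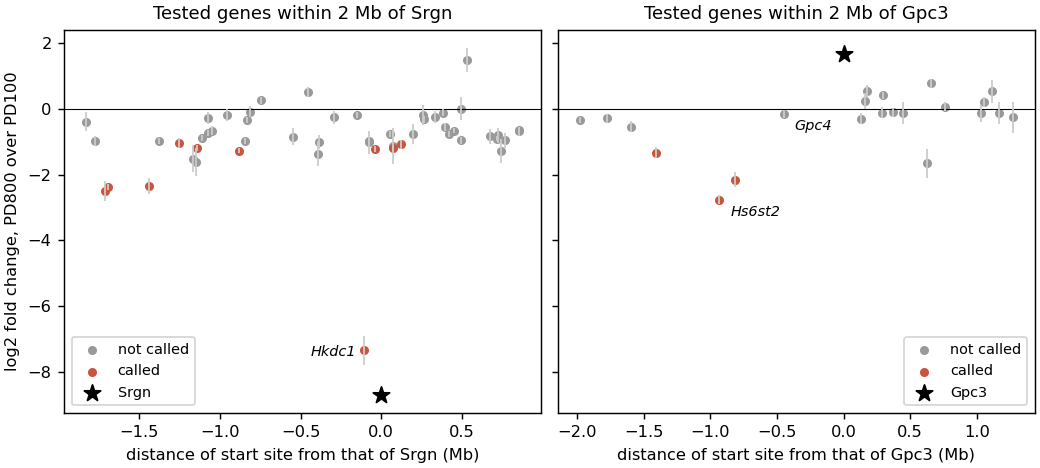
Log2 fold change of PD800 over PD100 cells against the distance in Mb of each tested gene's start from that of *Srgn* (left) or *Gpc3* (right), with bars for the standard error, red points for called genes and a star for the named gene. Around *Srgn* most points lie below 0, with *Hkdc1* near the star at a fitted -7.34, while *Gpc3* at 1.68 lies above all of its neighbours.

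Of 35 further core proteins, 25 were tested, 8 were called lower and 1 was called higher in PD800 cells. These are 32% and 4% of those tested, against 8.81% and 6.28% of all genes, and the median log2 fold change was -0.22. Of the 8, *Podn* and *Spock1* had passed the expression filter through their PD100 libraries alone. The genes that fell included *Thbd* (thrombomodulin), with expected counts of 589 and 473 in PD100 cells and of 22 and 32 in PD800 cells (log2 fold change -4.17 ± 0.20 SE, edgeR adjusted p = 7.29e-05). The hyaluronan receptor *Cd44* fell by 2.65 ± 0.14 (edgeR adjusted p = 8.95e-05), the semaphorin and VEGF receptor *Nrp1* fell by 2.43 ± 0.15 (edgeR adjusted p = 0.000136) and *Cspg4* fell by 2.04 ± 0.25 (edgeR adjusted p = 0.00141). *Col9a2*, a collagen that can carry a chondroitin sulphate chain, rose by 1.62 ± 0.20 (edgeR adjusted p = 0.00136). The most abundant of these core proteins, *Col18a1*, was at -0.95 and did not pass the fold threshold, and the glypican *Gpc2* was at 0.94 and did not pass it either. *Gpc5*, a further glypican, which lies 400 kb before *Gpc6*, had at most 8 expected counts and was not tested.

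The genes that build, modify and break down the sugar chains were described from fixed lists of 100 symbols, of which 89 were tested. These lists, like those of the further core proteins and of the markers, were chosen with earlier results of these data known. In PD800 cells 16 of the 89 were called lower and 5 higher, or 18% and 5.62%, against 8.81% and 6.28% of all tested genes, and the median log2 fold change was -0.26. Of the 16, 4 (25%) had passed the expression filter through their PD100 libraries alone and had to differ, as had 23.3% of all genes called lower. In the synthesis of the linkage region, which joins the chains to the core, 0 of 7 genes were called by edgeR or by DESeq2, with 1 higher and 1 lower at an unadjusted p under 0.05. Its most abundant gene, *B3gat3*, was at 0.05 ± 0.12 (edgeR adjusted p = 0.777). Of the 5 genes that polymerise heparan sulphate, 0 were called by edgeR or by DESeq2, with 1 higher and 2 lower at an unadjusted p under 0.05. The latter, *Ext1* at -0.52 ± 0.08 (edgeR adjusted p = 0.00294) and *Extl3* at -0.55, passed the adjusted p but not the fold threshold.

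Of 11 tested genes of heparan sulphate modification, 3 (27.3%) fell and 1 (9.09%) rose, beside 8.81% and 6.28% of all tested genes. *Hs3st1*, whose product makes the antithrombin-binding form of heparan sulphate, had expected counts of 402 and 317 in PD100 cells and of 5 in each PD800 library (log2 fold change -6.02 ± 0.21 SE). Its PD800 counts are few, so this SE is not read as the precision of the fold change. It passed the expression filter through its PD100 libraries alone and had to differ, which leaves 2 of the 3. *Hs6st2* fell by 2.76 ± 0.14 (edgeR adjusted p = 8.51e-05) and *Ndst2* fell by 1.21 ± 0.12 (edgeR adjusted p = 0.000677), while *Hs2st1* rose by 1.31 ± 0.08 (edgeR adjusted p = 0.000124). Of 15 tested genes for chondroitin and dermatan sulphate, 5 (33.3%) fell and 1 (6.67%) rose, beside 8.81% and 6.28% of all tested genes. Among the 5, *Csgalnact1* and *Chst7* had likewise passed the filter through PD100 alone, which leaves 3. The sulphotransferase *Chst15* fell by 4.0 ± 0.14 (edgeR adjusted p = 3.91e-05), *Ust* fell by 3.11 ± 0.30 (edgeR adjusted p = 0.000615), *Chst14* was called lower at -1.08, and *Chst3* rose by 1.58 ± 0.30 (edgeR adjusted p = 0.00734). Of the 11 genes that supply sugar and sulphate donors, 1 (9.09%) was called lower, beside 8.81% of all tested genes. It was the sulphate transporter *Slc26a2* at -1.52 ± 0.07 (edgeR adjusted p = 7.72e-05). In this list 0 were called higher by edgeR or DESeq2, beside 6.28% of all tested genes by edgeR, with 3 higher at an unadjusted p under 0.05.

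Outside the cell, 4 of 15 tested genes for editing and shedding (26.7%) fell and 1 (6.67%) rose, beside 8.81% and 6.28% of all tested genes. Among the 4, *Adamts5* had passed the expression filter through its PD100 libraries alone. *Notum*, a secreted enzyme that removes the lipid of Wnt proteins and binds glypicans, rose from expected counts of 425 and 392 to 2040 and 1945 (log2 fold change 2.40 ± 0.09 SE, edgeR adjusted p = 4.88e-05). *Adamts1*, a protease that cuts versican, fell by 3.87 ± 0.18 (edgeR adjusted p = 6.95e-05), the matrix protease *Mmp2* fell by 1.56 ± 0.10 (edgeR adjusted p = 0.000146), and *Adamts15* was called lower at -1.46. In lysosomal breakdown 2 of 17 genes (11.8%) were called lower and 2 (11.8%) higher, beside 8.81% and 6.28% of all tested genes. Among the former was the sulphatase *Galns* (-1.05). The latter were *Sumf1* (1.3), which activates sulphatases, and the sulphatase *Arsg* (1.37). Of 8 tested genes for hyaluronan, link proteins and syntenin, 1 (12.5%) was called lower, beside 8.81% of all tested genes. It was the link protein *Hapln4* at -2.99 ± 0.27 (edgeR adjusted p = 0.000485). In this list 0 were called higher by edgeR or DESeq2, beside 6.28% of all tested genes by edgeR, with 1 higher at an unadjusted p under 0.05. The calls of *Chst3*, *Chst14*, *Adamts15* and *Arsg* were lost without either PD800 replicate, and that of *Galns* without PD800 replicate 1.

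**Figure D5:**
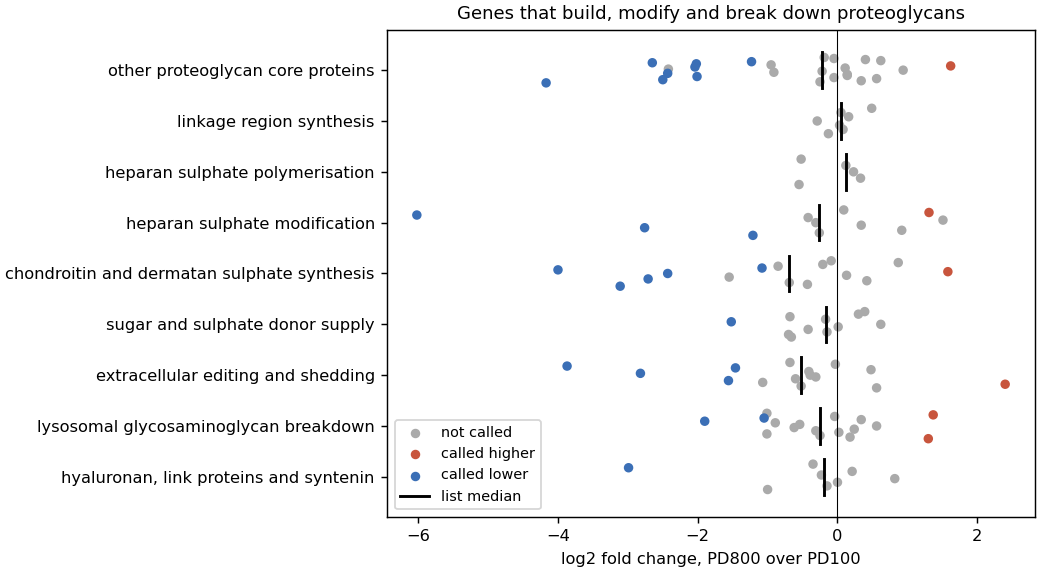
Log2 fold change of PD800 over PD100 cells for each tested gene of 9 lists, with called genes in red (higher) or blue (lower), other genes in grey and a bar at the median of each list. The genes for the linkage region and for heparan sulphate polymerisation lie near 0, whereas other lists hold called genes as low as -6.02 (*Hs3st1*) and as high as 2.40 (*Notum*).

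Markers of cells in which these core proteins are abundant were read in the same libraries, where the share called over all tested genes was 8.81% lower and 6.28% higher. Of 14 markers of blood and mast cells, where serglycin is most abundant, *Cpa3*, *Mcpt4*, *Tpsb2*, *Gzmb* and *Nkg7* were at 0 in every library and 4 were tested. *Ptprc* was counted at 31 and 28 at PD100 against 3 and 7 at PD800 (expected counts), and it had to differ, since it passed the filter through PD100 alone. *Kit*, which is also expressed in mESCs, rose by 1.85 ± 0.09 (edgeR adjusted p = 7.94e-05). The summed level of the 14 was between 16.9 and 21.1 TPM in PD100 cells and between 27.4 and 29.9 TPM in PD800 cells, led by *Laptm5* (7.94 TPM) in PD100 cells and by *Kit* (15.7 TPM) in PD800 cells. Of 8 endothelial markers 7 were tested, 3 were called lower by edgeR (*Cdh5* through its PD100 libraries alone) and 0 higher (1 at an unadjusted p under 0.05, and 0 called by DESeq2), and *Emcn* was at 0 in every library. Their sum was between 42.0 and 44.5 TPM in PD100 cells, led by *Egfl7* (20.8 TPM), and between 32.7 and 36.9 TPM in PD800 cells, where *Pecam1* (16.2 TPM) had the highest mean but overlapped with *Egfl7* between libraries. Of 10 fibroblast markers, 7 were called lower, with sums between 39.7 and 42.0 TPM in PD100 cells and between 8.89 and 9.20 TPM in PD800 cells, led by *Acta2* in both. All 14 markers of primitive and parietal endoderm were called lower (*Foxa2* and *Sox17* through their PD100 libraries alone), with a median of -3.47, and their sum was between 658 and 666 TPM in PD100 cells and between 74.1 and 76.7 TPM in PD800 cells, led by *Sparc* in both. The part of these cell types in the levels of the core protein genes was not tested.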

How the data were processed

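The authors aligned reads of 4 mESC RNA libraries to mm10 with STAR 2.5.3a and deposited the expected count that RSEM 1.3.0 estimated per gene, which is not scaled for depth (tools and versions from the submitters' processing notes, which also name DESeq2 1.18.1). The authors also deposited TPM, scaled for transcript length and to one total per library, and RSEM's mean transcript length. FPKM values were not used here. The annotation release is not given in the sources used here. The paper's text describes mRNA sequencing, and the labels name total RNA. Of the 53379 gene identifiers, 53274 were found in GENCODE M21, matched without version.

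Rounded expected counts were tested with edgeR 4.0.16 in R 4.3.3, after its filterByExpr (minimum count 10) and TMM, by its quasi-likelihood test, adjusted over 19148 genes after Benjamini-Hochberg. Calls needed a fold change over 2 beside an adjusted p under 0.01. A standard error is the log2 difference divided by the square root of edgeR's F. A fold against libraries with at most 3 counts is a lower bound. Floors cover counting error only. A gene is said to have passed the expression filter through 1 group alone where the libraries of the other were not both at the CPM of 10 counts in the median library. Counts of replicates differed by more than sampling noise, with a chi-square per degree of freedom of 57.9 (PD100) and 9.13 (PD800) and a common dispersion of 0.0136, so no libraries were merged. The core protein genes and all lists were chosen with earlier results of these data known. Named were all 10 core protein genes, from each list up to 4 rises and 4 falls with a mean of at least 1 CPM (or the gene with the highest TPM where none was called), the 3 nearest tested genes on each side of *Srgn*, and the marker with the highest TPM in each group. A gene that this rule names is not reported here. Others were named after their values were seen, among them *Col18a1*, *Gpc2*, *Gpc5*, *Extl3*, *Ptprc*, *Fam122b* and the neighbours called lower. Alternatives were DESeq2 1.42.0, other normalisations and filters, limma 3.58.1 on log2(TPM + 1) and log2(TPM + 0.1), no fold threshold, a replicate block and each library left out. The procedure was tested on simulated data. Coding stretches came from GENCODE M21 and promoters from RefSeq; blastn 2.17.0 compared coding sequences.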

Additional observations from a re-analysis of the deposited data

How the results depend on the processing

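The calls over all genes (1202 higher and 1686 lower in PD800 cells), over the 89 sugar chain genes (5 and 16) and over the 25 further core proteins (1 and 8) stayed within 1.5 times under DESeq2, other size factors, upper-quartile normalisation and other filters. With limma on log2(TPM + 1) there were 274 higher and 872 lower of all genes, 1 and 7 of the sugar chain genes and 0 and 4 of the core proteins. On log2(TPM + 0.1) the counts on the higher side were 454, 3 and 0. With no fold threshold they were 2513 and 2943 of all genes, 10 and 30 of the sugar chain genes, and 2 core proteins higher. With each library left out in turn, between 880 and 1514 genes were higher and between 1274 and 1893 lower, between 3 and 6 sugar chain genes were higher (3 without either PD800 replicate) and between 12 and 18 lower, and 1 core protein was higher and between 6 and 8 lower. A group left with 1 library is assumed there to vary like the other group. With the replicate number as a block (a replicate block) there were 1461 and 1956, 6 and 19, and 1 and 8 calls. The deviations of same-numbered libraries correlated at 0.265 over genes, but with only 2 pairs the numbers are not taken to pair the libraries. *Srgn* has no value where at least 10 counts were required in every library. Of 42 named genes outside the 10, 17 had another call under some alternative and 0 reversed. The cause of these differences was not tested. With 2 libraries a group, small differences such as those of *Gpc1*, *Gpc4*, *Sdc4* and *Vcan* are limited by the spread between libraries.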

Other observations

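Around the other core protein genes, the 20 nearest tested genes had medians on the log2 scale between -0.44 for *Gpc1* and 0.34 for *Gpc6*. *Gpc6* itself was at -1.08 on the log2 scale, while 4 of its 20 neighbours were called higher in PD800 cells by edgeR and 0 lower, beside 6.28% and 8.81% of all tested genes, with 1 lower at an unadjusted p under 0.05 (edgeR) and 0 called lower by DESeq2. The 20 genes span 13.8 Mb of chromosome 14. Genes that overlap the core protein genes on the other strand had few counts, with at most 33 expected counts in any library (*Gm4117*, antisense to *Vcan*), beside at least 2655 for *Vcan*.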
